A study of Mus musculus with 13 samples.

Results

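Astrocytes are the glial cells that take up glutamate and potassium around synapses, convert glutamate into glutamine and are joined to each other by gap junctions. The 10 genes described here are commonly used to recognize them: *Gfap*, which encodes an intermediate filament protein; *Aqp4*, a water channel; *Aldh1l1*, a folate enzyme; *Aldoc*, a glycolytic aldolase; *Slc1a2* and *Slc1a3*, the main glutamate transporters of astrocytes; *Gja1* and *Gjb6*, connexins; *Glul*, glutamine synthetase; and *S100b*, a calcium-binding protein. They were taken as a fixed list of names, were all found in the annotation, and are 10 of the 22329 protein-coding genes that could be placed on the map. The list of names was drawn up with earlier results of these maps known, although the rule that places the genes uses no call.

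Pericentromeric satellite repeats of several mouse chromosomes cluster in the nucleus into chromocenters, which are compact and rich in heterochromatin. Satellite 4C (sat4C) enriches DNA fragments that were ligated to these repeats, and a pericentromere-associated domain (PAD) is a run of fragment ends with frequent contacts. A PAD call is therefore a statement on position in the nucleus and not on expression.

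The series holds 13 sets of reads. Embryonic stem cells (ESCs; line IB10, strain 129/ola) were measured in 3 replicates, neural precursor cells (NPCs) derived from these ESCs in 2 replicates, and astrocytes (ACs) derived in vitro from these NPCs in 2 replicates, without any genetic change or drug named in the labels. Thymus tissue of adult male C57BL/6 mice was measured in 3 replicates, each with 2 sets of reads from different instruments. The cultured cells all go back to a single ESC line, the labels do not say whether their replicates are separate cultures, and thymus differs from them in strain and in being tissue, so that these differences cannot be told apart. The deposited calls hold 1 consensus state per cell type for each of 399232 fragment ends (mm9) and 0 columns for single replicates. Neither depth nor replicate spread could be had, no test was possible, and each count below is a description of 4 consensus maps. The maps have no expression values, so the label of the ACs could not be checked against these markers.

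Each gene was placed by the midpoint of its longest transcript. By this rule 6 of the 10 marker genes lay in PADs in ESCs, against 46.5% of all protein-coding genes. In NPCs 9 of 10 did, against 68.5%, and only *Gja1* was outside. In ACs 2 of 10 did, against 34.9%, namely *Slc1a3* and *Gja1*. In thymus only *Slc1a3* was in a PAD, against 26.1% of all genes. The share of the marker genes stood above the background in ESCs and NPCs and below it in ACs and thymus. Placed by transcription start site, 3 of 10 were in AC PADs, with *Aqp4* added, which is closer to the 34.9% of all genes by midpoint. These differences were not tested, and with 10 genes each gene moves a share by 10 percentage points.

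**Figure D1:**
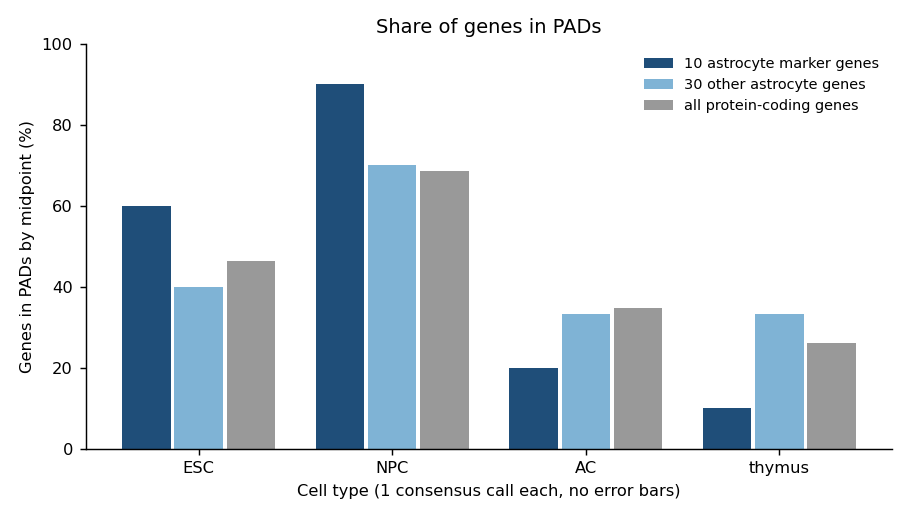
Bars show the percentage of genes whose midpoint lies in a PAD (y axis) in each cell type (x axis) for the 10 astrocyte marker genes, 30 other astrocyte genes and all protein-coding genes. There are no error bars because each cell type has 1 consensus call. The marker genes stand at 60.0, 90.0, 20.0 and 10.0% in ESCs, NPCs, ACs and thymus.

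Over the 4 cell types the marker genes fell into 4 of the 16 possible patterns. *Aqp4*, *Aldh1l1*, *Aldoc*, *Gjb6* and *Glul* were in PADs in ESCs and NPCs and outside in ACs and thymus, a pattern that 12.2% of all protein-coding genes had. Without the NPC call the same 5 genes were PAD in ESCs and non-PAD in ACs and thymus, against 14.5% of all genes. *Gfap*, *Slc1a2* and *S100b* were in PADs in NPCs only, as were 23.9% of all genes. *Slc1a3* was in a PAD in all 4 cell types, as were 14.8%. *Gja1* was in a PAD in ACs only, a pattern of 117 genes or 0.524% of the total. No marker gene was outside PADs in all 4 cell types, where 4479 genes (20.1%) were.

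**Figure D2:**
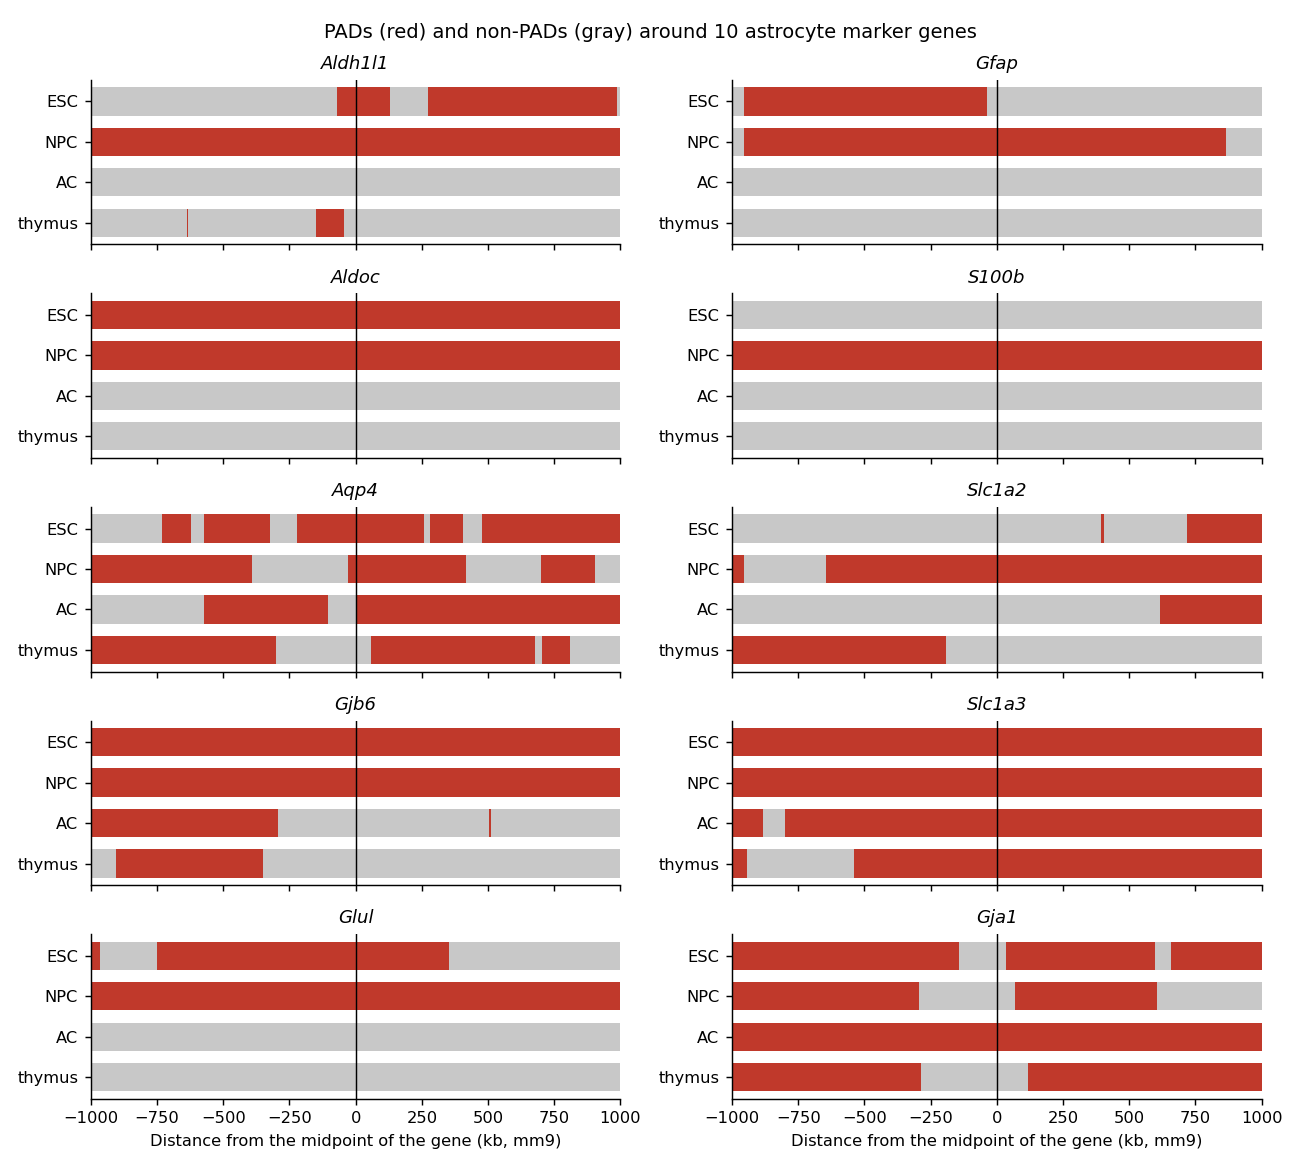
PADs (red) and non-PADs (gray) are drawn within 1 Mb of the midpoint of each marker gene (vertical line; x axis in kb), with a row each for ESCs, NPCs, ACs and thymus. The left column holds the 5 genes that were PAD in ESCs and NPCs only, and the right column shows the 3 genes that were PAD in NPCs only, then *Slc1a3* and *Gja1*.

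The steps between cell types were set against the same steps for all protein-coding genes. Between ACs and ESCs, 5 of 10 marker genes were non-PAD in ACs and PAD in ESCs, against 17.2% of all genes, and *Gja1* alone was PAD in ACs and non-PAD in ESCs, against 5.62%. Of the genes that were in ESC PADs, 5 of 6 marker genes were non-PAD in ACs, against 37.0% of all such genes, and the same 5 of 6 were non-PAD in thymus, against 57.0%. Placed by transcription start site, 4 of 6 were non-PAD in ACs, against 37.3%, and 5 of 6 in thymus, against 57.0%. Between NPCs and ESCs, 3 marker genes were PAD in NPCs and non-PAD in ESCs (*Gfap*, *Slc1a2* and *S100b*), a share close to the 29.0% of all genes, and 0 were non-PAD in NPCs and PAD in ESCs, against 7.11%. Between ACs and NPCs, 8 were non-PAD in ACs and PAD in NPCs, against 38.4%, and *Gja1* was PAD in ACs and non-PAD in NPCs, against 4.89%. Between ACs and thymus the calls differed for 1 gene: *Gja1* was PAD in ACs and non-PAD in thymus, against 15.5% of all genes, while 0 marker genes were non-PAD in ACs and PAD in thymus, against 6.66%. For 9 of the 10 genes the AC map and the thymus map thus held the same call. Over all genes the calls of these 2 maps differed for 22.2%. By transcription start site they differed for 2 of the 10 marker genes, with *Aqp4* added. NPCs also had the highest share of fragment ends in PADs (68.9%, against 54.5% in ESCs), whereas ACs had 54.0% and thymus 52.2%. These comparisons share maps and are not independent of each other.

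The following fragment ends are those nearest to the midpoints of *Aldh1l1*, *Gjb6* and *Glul* that lie outside annotated exons, and they show what a single called unit is. Each runs between an MfeI site (CAATTG) and an NlaIII site (CATG), which are in capitals, and is given 5′ to 3′ on the forward strand of mm9. All 3 were called PAD in ESCs and NPCs and non-PAD in ACs and thymus.
Aldh1l1, chr6:90469982-90470061: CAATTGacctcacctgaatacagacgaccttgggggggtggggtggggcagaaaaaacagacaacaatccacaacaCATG
Gjb6, chr14:57743752-57743800: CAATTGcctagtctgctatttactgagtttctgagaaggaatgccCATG
Glul, chr1:155741423-155741550: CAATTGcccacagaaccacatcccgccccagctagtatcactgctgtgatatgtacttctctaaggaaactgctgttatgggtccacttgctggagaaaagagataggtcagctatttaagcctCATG

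*Aldh1l1* spans chr6:90436421-90509380 (73.0 kb, 18 fragment ends), and the sequence above is in its intron. In ESCs it lay in a PAD of 199 kb, the smallest around the 6 marker genes in ESC PADs, with the nearest border 70.5 kb away. In NPCs this domain measured 6794 kb. In ACs the gene was in a non-PAD of 3889 kb and 1526 kb from a border, and in thymus in a non-PAD of 2631 kb with a border 42.0 kb upstream of the midpoint. The whole 199 kb ESC PAD was non-PAD in ACs, and it held 2 other protein-coding genes, *Klf15*, a Krüppel-like transcription factor, and *Slc41a3*, a member of a magnesium transporter family. *Klf15* was within a thymus PAD and *Aldh1l1* was not, so that the border between them separated these neighbors in thymus only.

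*Gjb6* (connexin 30; chr14:57742140-57752448) was in large PADs of 5450 kb in ESCs and 6043 kb in NPCs. In ACs it lay in a non-PAD of 798 kb, 292 kb from a border, and in thymus in a non-PAD of 1604 kb. The PADs at the upper ends of these non-PADs measured only 4.30 kb in ACs and 2.90 kb in thymus. Both sizes therefore depend on a very short PAD. The 798 kb segment was entirely PAD in ESCs and in NPCs. It held 9 other genes, among them *Gjb2* and *Gja3*, the other connexin genes of this cluster, and *Gm4491*, *Zmym2* and *Cryl1*. All 3 connexin genes therefore had the same calls. The 84 fragment ends within 250 kb of *Gjb6* were all PAD in ESCs and NPCs and all non-PAD in ACs and thymus.

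*Glul* (chr1:155747074-155756853) was in an ESC PAD of 1103 kb with a border at 352 kb, and in an NPC PAD of 8238 kb. In ACs it lay in a non-PAD of 5193 kb and in thymus in a non-PAD of 6375 kb, each with the nearest border over 1 Mb away (1039 kb in ACs and 1446 kb in thymus). The whole ESC PAD with *Glul* and its 15 other genes was non-PAD in ACs, and the nearest of these were *A930039A15Rik*, *Gm11074*, *Teddm1*, *Gm5531* and *5830403L16Rik*. The end printed above for *Glul* is in an intron of *5830403L16Rik*, because the only end within *Glul* is exonic.

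*Aldoc* (chr11:78136470-78141283) has no fragment end within its 4.81 kb, and the nearest end was 2.98 kb from its midpoint. It was deep inside its domain in each map: in PADs of 3958 kb in ESCs and 10073 kb in NPCs, and in non-PADs of 5250 kb in ACs and 5198 kb in thymus, with the nearest border between 1093 kb (thymus) and 4449 kb (NPCs) away. The segment around it that was non-PAD in ACs and PAD in ESCs measured 3087 kb and held 65 other genes, the most among the marker genes, and the nearest were *Pigs*, *Spag5*, *Unc119*, *BC030499* and *Foxn1*. All 57 fragment ends within 250 kb were PAD in ESCs and NPCs and non-PAD in ACs and thymus.

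*Aqp4* (chr18:15547903-15562193), the main water channel of astrocyte end feet, was the only marker gene with a border inside its body, in ACs. In ESCs it was in a PAD of 478 kb and 221 kb from a border. In NPCs the PAD measured 447 kb and the border was 30.6 kb away. In ACs its midpoint was in a non-PAD of 105 kb with 14 fragment ends and lay 0.325 kb from a border inside the gene. Of the 12 fragment ends in the body of *Aqp4*, all were PAD in ESCs and NPCs, while ACs had 10 PAD ends and thymus 0. *Aqp4* lies on the reverse strand, and its start was on the PAD side of this border. Placed by its transcription start site, or by any overlap of its body with a PAD, *Aqp4* was in a PAD in ACs, so that 3 of 10 marker genes were in AC PADs and 4 of 10 had the pattern PAD in ESCs and NPCs and non-PAD in ACs and thymus. This was the only one of the 40 calls that changed with any of the 5 other ways to place genes or build domains. Of the 93 fragment ends within 250 kb of *Aqp4*, ESCs had 85 (91.4%) in PADs, NPCs 52 (55.9%), ACs 79 (84.9%) and thymus 30 (32.3%). In ACs most ends around the gene were thus PAD, although its midpoint was non-PAD. The 105 kb segment held 0 other protein-coding genes. The nearest genes, *Kctd1* at 336 kb and *Chst9* at 210 kb, were both in PADs in ACs.

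**Figure D3:**
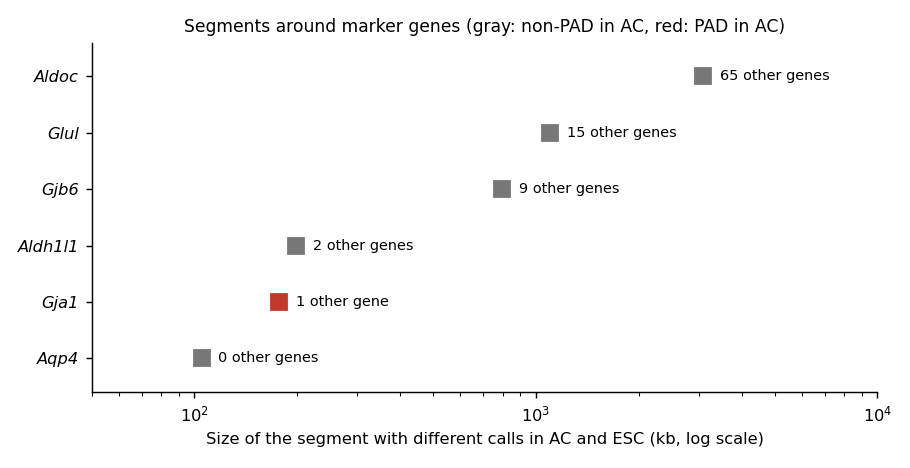
Each square is the segment around a marker gene whose call differs between ACs and ESCs (x axis, size in kb on a log scale), gray where it was non-PAD in ACs and red where it was PAD in ACs, with the number of other protein-coding genes in it. Sizes run between 105 kb (*Aqp4*) and 3087 kb (*Aldoc*).

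For the genes that were in PADs in NPCs only, the ends nearest to the midpoints of *S100b* and *Slc1a2* outside annotated exons are shown in the same way. Both were PAD in NPCs and non-PAD in ESCs, ACs and thymus. The end next to *S100b* is upstream of the gene, and that of *Slc1a2* is in its intron.
S100b, chr10:75715732-75715844: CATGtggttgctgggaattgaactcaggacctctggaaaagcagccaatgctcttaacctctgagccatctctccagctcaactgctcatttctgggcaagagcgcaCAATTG
Slc1a2, chr2:102564132-102564178: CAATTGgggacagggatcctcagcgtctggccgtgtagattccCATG

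*S100b* (chr10:75716598-75723904) was the most deeply placed of the marker genes in NPCs, 5497 kb from the nearest border of a PAD of 11524 kb. Its non-PADs measured 4091 kb in the ESC map, 3933 kb in the AC map and 13573 kb in the thymus map, and borders were at least 1847 kb away. The 4091 kb ESC non-PAD was PAD in NPCs in its entire length, with 74 other genes. The nearest of these were *Prmt2*, which encodes an arginine methyltransferase, and *Dip2a*.

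*Slc1a2* (GLT-1; chr2:102498816-102630941) was in a PAD of 2503 kb in NPCs, with a border 644 kb away. It was in a non-PAD of 4119 kb in ESCs (border at 390 kb), of 3323 kb in ACs (617 kb) and of 2072 kb in thymus (191 kb). The PAD at the ESC border measured only 1.29 kb. All 14 fragment ends in its body had the same call in each map. The segment that was PAD in NPCs and non-PAD in ESCs held 6 other genes, among them its neighbors *Pamr1* and *Cd44*, the hyaluronan receptor.

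*Gfap* (chr11:102748650-102758445) lay 35.5 kb from the end of an ESC PAD. *Gjc1*, the connexin 45 gene on the other side of this border, was PAD in ESCs and non-PAD in ACs, whereas *Gfap* was non-PAD in both. Of the 70 fragment ends within 250 kb of *Gfap*, ESCs had 25 (35.7%) in PADs, NPCs 70, ACs 0 and thymus 0. Its NPC PAD measured 1820 kb. The non-PAD around it was 1536 kb long in ESCs and 4590 kb in ACs, and at 16569 kb that of thymus was the largest domain around any of the 10 genes. The longest transcript of *Gfap* holds no fragment end, and the nearest end was 7.93 kb from its midpoint.

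*Slc1a3* (GLAST; chr15:8584124-8660764) was the only marker gene in a PAD in each map. The ESC PAD measured 7746 kb (nearest border at 2219 kb) and the NPC PAD 6600 kb (1982 kb). The AC PAD measured 2661 kb (800 kb) and the thymus PAD 3534 kb (539 kb). No domain preceded the ESC PAD on Chromosome 15, so that its size was cut by the chromosome start and does not run between borders. The midpoint of *Slc1a3* was 8.62 Mb from this start, the shortest such distance among the marker genes. Whether nearness to the chromosome start bears on the calls of *Slc1a3* was not tested. All 18 ends in its body and all 88 within 250 kb were PAD in all 4 maps. Its neighbors *Nipbl*, which encodes the cohesin loader, and *Ranbp3l* had the same calls. The end 0.195 kb from its midpoint is in an intron.
Slc1a3, chr15:8622640-8622731: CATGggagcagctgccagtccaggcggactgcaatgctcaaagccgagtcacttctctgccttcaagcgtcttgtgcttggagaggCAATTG

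*Gja1* (connexin 43; chr10:56097106-56110225) was the only marker gene in a PAD in ACs alone. In the other maps it lay in short non-PADs, which measured 177 kb (17 fragment ends) in ESCs, 364 kb (51 ends) in NPCs and 404 kb (52 ends) in thymus, flanked on both sides by PADs of at least 537 kb. In ACs this gap was absent, and *Gja1* was 1091 kb inside a PAD of 3578 kb (596 ends). Of the 51 ends within 250 kb of *Gja1*, ESCs had 34 (66.7%) in PADs, NPCs 14 (27.5%), ACs 51 and thymus 7 (13.7%). The gene body holds no fragment end. The nearest end, printed here, is between genes and 7.29 kb from the midpoint, and it was PAD in ACs and non-PAD in ESCs, NPCs and thymus.
Gja1, chr10:56110953-56111145: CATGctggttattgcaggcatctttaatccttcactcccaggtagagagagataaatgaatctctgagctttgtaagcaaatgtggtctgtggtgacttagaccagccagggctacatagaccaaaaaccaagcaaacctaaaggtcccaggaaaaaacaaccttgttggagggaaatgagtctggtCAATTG

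The median domain around a marker gene measured 2.75 Mb in ESCs, against 2.47 Mb for all protein-coding genes. It was 6.32 Mb in NPCs (all genes 2.86 Mb), 3.73 Mb in ACs (all genes 3.32 Mb) and 3.08 Mb in thymus (all genes 4.77 Mb). The median distance of the marker genes to the nearest border was 371 kb in ESCs, against 477 kb for all genes. In NPCs it was 1989 kb (all genes 618 kb), in ACs 1065 kb (all genes 683 kb) and in thymus 445 kb (all genes 982 kb). The median of the marker genes was larger than that of all genes in NPCs and ACs and smaller in ESCs and thymus. With runs under 5 fragment ends absorbed, the median of the marker genes in ESCs was 534 kb. That of all genes with this step is not given here, so the direction in ESCs may rest on short runs. Within 100 kb of a border were *Gfap*, *Aldh1l1* and *Gja1* in ESCs, where 15.5% of all genes were, *Aqp4* and *Gja1* in NPCs (12.3%), *Aqp4* in ACs (11.7%), and *Aqp4* and *Aldh1l1* in thymus (8.62%).

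**Figure D4:**
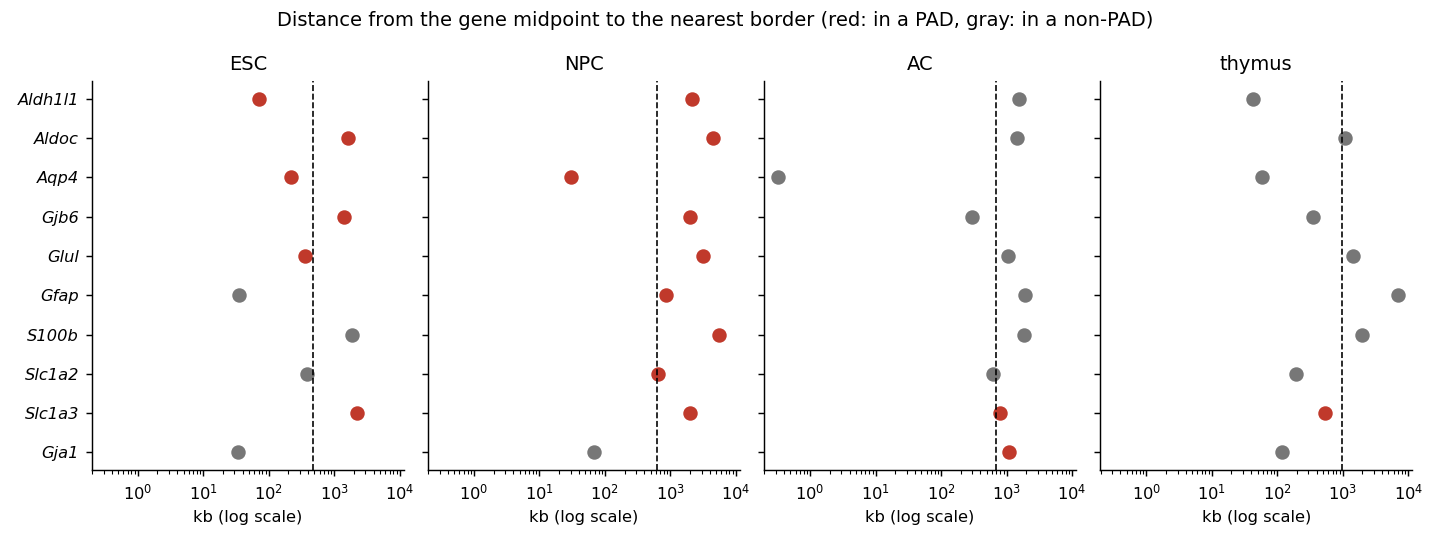
Points give the distance from the midpoint of each marker gene to the nearest border (x axis, kb, log scale), a panel per cell type, red in a PAD and gray in a non-PAD. The dashed line is the median over all protein-coding genes (477, 618, 683 and 982 kb in ESCs, NPCs, ACs and thymus), and *Aqp4* in ACs is the lowest point at 0.325 kb.

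Of the 20 nearest protein-coding genes, 1 on each side, 16 had the same call as the marker gene in all 4 cell types. Over all protein-coding genes 83.6% of such neighbors did, so that the marker genes were close to the background in this. The exceptions were *Kctd1* and *Chst9* beside *Aqp4*, *Klf15* beside *Aldh1l1*, and *Gm9956* beside *Gja1*. GC content in windows of 500 kb was between 40.2% around *Gja1* and 49.0% around *Aldh1l1*, with a median of 44.3%, against 44.2% for all genes. Around the gene that was PAD in all maps, *Slc1a3*, it was 42.1%, against a median of 40.0% over all genes with this pattern. Gene density was between 3 other genes in 1 Mb around *Aqp4* and 33 around *Aldoc*, with a median of 12.5, against 15.0 for all genes.

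Other genes of astrocytes and relatives of the marker genes were read from the same maps. Of 30 other astrocyte genes, the ESC PADs held 12 (40.0%), the NPC PADs 21 (70.0%), the AC PADs 10 (33.3%) and the thymus PADs 10 (33.3%), close to the background shares of ESCs, NPCs and ACs given above. Non-PAD in ACs and PAD in ESCs were 3 of them, *Acsbg1*, a fatty acyl-CoA synthetase, *Fgfr3*, a receptor for fibroblast growth factors, and *Ppp1r3c*, a subunit that directs a phosphatase to glycogen. PAD in ACs and non-PAD in ESCs was *Sox9*, a transcription factor of glial specification, at 95.3 kb from the border of an AC PAD of 561 kb. By midpoint, the call non-PAD in ACs and PAD in ESCs was thus held by 5 of 10 marker genes and by 3 of 30 other astrocyte genes, against 17.2% of all genes. By transcription start site 4 of the 10 marker genes held it, without *Aqp4*. The difference between the lists was not tested. The 10 in AC PADs also included *Vim*, the intermediate filament that pairs with *Gfap*, *Nfib*, a nuclear factor I gene, *Tnc*, *Slc4a4*, *Slco1c1*, *Slc39a12*, *Dio2*, *Cst3* and *Atp1b2*. *Vim* and *Slc39a12* lie in the same AC PAD of 7406 kb, so that they are not separate observations.

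The counts of the gene families below stand against the PAD share of all genes, which in the ESC map was 46.5%, in the NPC map 68.5%, in the AC map 34.9% and in the thymus map 26.1%, and none was tested. Among the 20 connexin genes, the ESC PADs held 10, the NPC PADs 11, the AC PADs 4 and the thymus PADs 3. Non-PAD in ACs and PAD in ESCs were 7, among them *Gja3*, *Gjb2* and *Gjb6* in the cluster described above, *Gja5*, *Gja10* and *Gjc1*, while *Gja1* alone was PAD in ACs and non-PAD in ESCs. The 4 connexin genes in AC PADs were *Gja1*, *Gjd2*, *Gjd4* and *Gje1*. Of the 7 Slc1 transporter genes, 4 were in PADs in ACs (*Slc1a3*, *Slc1a4*, *Slc1a6* and *Slc1a7*) and 4 in ESCs, with *Slc1a1*, the neuronal transporter EAAC1, non-PAD in ACs and PAD in ESCs, and *Slc1a7* the other way. Of 12 aquaporin genes, *Aqp11* alone was in an AC PAD by midpoint, and 2 were by transcription start site, with *Aqp4* added. By midpoint *Aqp3*, *Aqp7* and *Aqp4* were non-PAD in ACs and PAD in ESCs, the first and the second in the same AC domain. Of the 3 aldolase genes, *Aldoa* was in a PAD in ACs and *Aldoc* was not. *Lgsn*, a lens relative of *Glul*, was PAD in ACs and non-PAD in ESCs.

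Of 10 class III and IV intermediate filament genes, *Vim* was in an AC PAD, and *Nefm* and *Nefh*, which encode neurofilament subunits, were non-PAD in ACs and PAD in ESCs. Of 7 ALDH1 genes, *Aldh1a1* and *Aldh1a7* were in the same AC PAD and *Aldh1l1* was the one that was non-PAD in ACs and PAD in ESCs. Of 16 S100 genes, 13 were in AC PADs and the same 13 in ESC PADs, among them *S100a1*, *S100a6* and *S100a10*, and 0 in thymus PADs. These 13 lie on Chromosome 3 in 2 AC PADs, of 2216 kb and 1182 kb, so that they are not separate observations. *S100b* lies on Chromosome 10 and had a different pattern.

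Promoter sequence was examined for the marker genes because the palindrome TTCNNNGAA is bound by STAT factors and TTGGC is the recognition core of nuclear factor I, both of which act on astrocyte genes. In windows of 250 bases before to 50 bases after the start (RefSeq, GRCm38.p6), 9 of the 10 genes had an entry, *Aldoc* with 2. TTCNNNGAA was in 3 of these 10 windows (*Aldoc*, *Gfap* and *Slc1a3*), against 8.30% of 32851 promoters. TTGGC on either strand was in 4 (*Aldoc*, *Glul*, *S100b* and *Slc1a2*), against 46.7%, and its full palindrome, TTGGC and GCCAA with 5 bases between them, in 0, against 0.0365%. Of the genes that were PAD in ESCs and NPCs only, *Aldh1l1* and *Gjb6* had none of these letters, so that no motif was shared by all genes of the pattern. The 250 bases before the start of *Glul* and before the first start of *Aldoc* are printed on the forward strand, with TTGGC or its reverse complement GCCAA in capitals.
Glul, chr1:153899679-153899928: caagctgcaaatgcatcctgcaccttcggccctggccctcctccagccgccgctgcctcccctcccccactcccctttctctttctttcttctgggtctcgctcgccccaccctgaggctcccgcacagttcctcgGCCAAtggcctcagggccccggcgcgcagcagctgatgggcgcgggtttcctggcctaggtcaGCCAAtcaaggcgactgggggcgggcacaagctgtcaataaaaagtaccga
Aldoc, chr11:78322823-78323072: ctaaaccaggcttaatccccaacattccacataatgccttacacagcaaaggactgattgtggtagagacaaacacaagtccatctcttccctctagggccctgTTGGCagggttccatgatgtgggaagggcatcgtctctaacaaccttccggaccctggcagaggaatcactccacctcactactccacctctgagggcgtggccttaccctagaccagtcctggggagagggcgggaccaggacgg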

How the data were processed

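The authors mapped the sat4C reads to mm9 fragment ends, leaving out Chromosome Y, sorted the reads into classes and fitted a two-state hidden semi-Markov model per replicate (mhsmm, R). The aligner was not given in the sources used here. A majority vote over replicates, with a virtual replicate of the pooled reads to settle ties, gave the deposited calls. With 2 replicates, as in NPCs and ACs, each disagreement is a tie. The calls are the word PAD or nPAD for 399232 ends, with no read counts. Of these ends, 97.8% began at an MfeI or NlaIII site.

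Consecutive ends with equal calls were joined to domains, with borders midway between ends of different calls. GENCODE vM1 gave 22380 protein-coding genes, of which 22329 were placed. The procedure was tested on simulated calls. Alternatives were other placements, backgrounds, borders and windows, runs under 5 ends absorbed, gaps over 100 kb left out and, added after seeing the data, NPCs left out. Named by rule were the marker genes, their nearest genes, up to 5 genes of the changed segment, and list genes in AC PADs or with calls that differed between ACs and ESCs. Genes of the segments around *Gfap*, *S100b* and *Slc1a2* are those nearest genes, and *Gjc1* was set beside *Gfap* after its values were seen. The calls of some genes that this rule names are not reported here. The marker genes and lists were chosen with earlier results of these data known. Python 3.11.15, numpy 2.4.6, pandas 2.3.3 and matplotlib 3.10.9 were used.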

Additional observations from a re-analysis of the deposited data

How the results depend on the processing

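Of 107 values computed under alternative settings, 102 stayed within 1.5 times the value reported. These include the number of marker genes in AC PADs, which was 3 instead of 2 by start site or by any overlap, exactly at this limit. The number of marker genes that were PAD in ACs and non-PAD in thymus was 2 instead of 1 by start site or by any overlap, because *Aqp4* joined *Gja1*. The median share of PAD ends around the marker genes depended on the window: it was 0% in ACs with 250 kb on each side and 9.84% with 1 Mb, and in thymus 5.62% with 250 kb, 0% with 100 kb and 17.5% with 1 Mb. No paired analysis was possible because the calls hold no replicate columns, and for the same reason no replicate could be left out and no limit set by depth could be given.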

Other observations

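Markers of other neural cells are given beside the PAD share of all genes (34.9% in ACs, 46.5% in ESCs and 68.5% in NPCs) and beside the 17.2% of all genes that were non-PAD in ACs and PAD in ESCs. Of 12 oligodendrocyte markers, 0 were in PADs in ACs, 4 (33.3%) in NPCs and 4 (33.3%) in ESCs. The 4 in ESC PADs, among them *Mag*, *Cldn11* and *Cspg4*, were all non-PAD in ACs. Of 12 neuron markers, 3 (25.0%) were in PADs in ACs (*Snap25*, *Gad2* and *Dcx*), 7 (58.3%) in NPCs and 6 in ESCs. *Tubb3*, *Syn1* and *Stmn2* were non-PAD in ACs and PAD in ESCs. By transcription start site 5 neuron markers were in AC PADs. Of 11 microglia markers, 10 (90.9%) were in PADs in NPCs, 2 (18.2%) in ACs, *Itgam* among them, and 4 (36.4%) in ESCs, with *Aif1* and *P2ry12* non-PAD in ACs and PAD in ESCs. The microglia markers in NPC PADs include *C1qa*, *C1qb* and *C1qc*. These lie close together on Chromosome 4 with the same calls, so that they are not separate observations. No list was tested against another or against all genes.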
